A study of Saccharomyces cerevisiae with 6 samples.

Results

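The introns of wild-type budding yeast were described by how completely each had been removed and by how many reads its gene drew. An intron was kept when its spliced and unspliced reads together averaged at least 10 over the 3 wild-type (WT) libraries. This kept 272 of the 309 introns targeted, in 266 of 298 genes, and left 37 under the minimum. Every kept intron had at least 1 read in each of the 3 libraries.

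Most budding yeast genes have no intron, and genes for ribosomal proteins, which are transcribed very heavily, hold a large group of the introns that exist. The spliceosome recognises an intron by a short sequence at its start (the 5′ splice site, in yeast mostly GTATGT), by the branch site near its end (mostly TACTAAC), where the first chemical step joins the start of the intron, and by the last bases (the 3′ splice site, ending in AG). The percent of reads that still hold an intron depends on how fast it is removed, on how fast unspliced and spliced RNA decay, and on any transcript that is not a substrate of the spliceosome.

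Splicing was read by MPE-seq (multiplexed primer extension sequencing). Primers that anneal just after each targeted intron prime reverse transcription, and a read either crosses the joined exons (spliced) or runs into the intron (unspliced). The 3 WT libraries, replicates A, B and C, came from strain EJS1, grown at 25 °C in rich medium to mid-log phase and held at 37 °C for 15 min before harvest, and each used 10 µg of total RNA. The short heat treatment applied to every library, so the values are those of cells just moved to the higher temperature. The series also has 3 libraries of the prp2-1 strain, which were not used here. The WT libraries held 1612685, 1983661 and 2516774 counted reads, and the kept introns took 99.996% of them. The unspliced percent of an intron is its unspliced reads over the sum of its spliced and unspliced reads. The read share of a gene is its reads over the library total. A read share depends on the primers as well as on the RNA, and fewer cells making an RNA cannot be told apart from less RNA per cell. The values ± SD below are over the 3 libraries (n = 3).

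Introns of low and of high unspliced percent can be seen beside their sequences. The introns below were picked after their values were seen. They show an efficiently spliced intron and introns that depart from the consensus. They also show SUS1 intron 2 beside intron 1 of its gene, and KIN28, with consensus sites and mostly unspliced reads. Each runs from 5′ to 3′ on the transcribed strand of the R64 reference. Capitals mark the first 6 bases, the branch site match closest to TACTAAC, with at most 1 mismatch, and the last 3 bases.
UBC4 intron 1, chrII:407028-407122, minus strand: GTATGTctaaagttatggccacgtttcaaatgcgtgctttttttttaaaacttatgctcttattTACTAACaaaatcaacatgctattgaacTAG
RPL30 intron 1, chrVII:439094-439323, plus strand: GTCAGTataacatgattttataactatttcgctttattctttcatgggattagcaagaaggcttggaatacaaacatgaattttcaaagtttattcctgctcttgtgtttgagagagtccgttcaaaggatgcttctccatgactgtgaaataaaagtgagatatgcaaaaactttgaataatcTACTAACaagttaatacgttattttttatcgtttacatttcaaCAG
SUS1 intron 1, chrII:462210-462289, plus strand: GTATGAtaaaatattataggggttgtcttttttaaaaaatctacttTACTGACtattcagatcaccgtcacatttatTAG
SUS1 intron 2, chrII:462430-462499, plus strand: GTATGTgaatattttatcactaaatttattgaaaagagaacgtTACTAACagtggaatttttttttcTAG
SRC1 intron 1, chrXIII:211445-211570, plus strand: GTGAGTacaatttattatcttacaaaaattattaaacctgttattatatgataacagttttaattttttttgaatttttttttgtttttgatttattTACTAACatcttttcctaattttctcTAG
CMC4 intron 1, chrXIII:652776-652847, minus strand: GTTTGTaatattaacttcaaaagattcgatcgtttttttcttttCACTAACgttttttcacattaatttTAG
REC107 intron 1, chrX:469184-469263, minus strand: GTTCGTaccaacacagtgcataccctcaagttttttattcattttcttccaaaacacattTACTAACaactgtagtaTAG
KIN28 intron 1, chrIV:267726-267806, plus strand: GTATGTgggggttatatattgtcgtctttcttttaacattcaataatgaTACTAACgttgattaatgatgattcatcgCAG
GIM4 intron 1, chrV:148195-148282, plus strand: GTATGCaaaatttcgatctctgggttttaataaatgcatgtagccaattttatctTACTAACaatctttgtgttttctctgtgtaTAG
COX5B intron 1, chrIX:155223-155310, plus strand: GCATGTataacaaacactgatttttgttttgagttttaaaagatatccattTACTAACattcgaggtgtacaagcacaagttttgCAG
In this set the unspliced percent ran from 0.153% ± 0.0110 for RPL30 and 1.20% ± 0.0634 for UBC4 to 100% for COX5B, where no spliced read was counted. The branch site matches of SUS1 intron 1 and CMC4 differ from TACTAAC by A5G and T1C, counted from 1 at the first base of TACTAAC. KIN28 holds GTATGT at its start, TACTAAC and a final CAG, and 94.5% ± 1.64 of its reads were unspliced.

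Unspliced percent spanned the whole possible range across wild-type introns, while the reads as a whole were almost all spliced. Of all counted reads, 1.83%, 1.88% and 1.73% were unspliced in libraries A, B and C, a mean of 1.81% ± 0.0802. The median over the 272 introns was 3.73%, 3.59% and 3.53% in the same libraries, a mean of 3.62% ± 0.104, and the quartiles lay at 0.210% ± 0.0254 and 16.3% ± 0.432. By the mean over the libraries, 95 introns were under 1% unspliced, 86 lay from 1% to 10%, 56 from 10% to 50%, and 35 were over 50%.

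**Figure D1:**
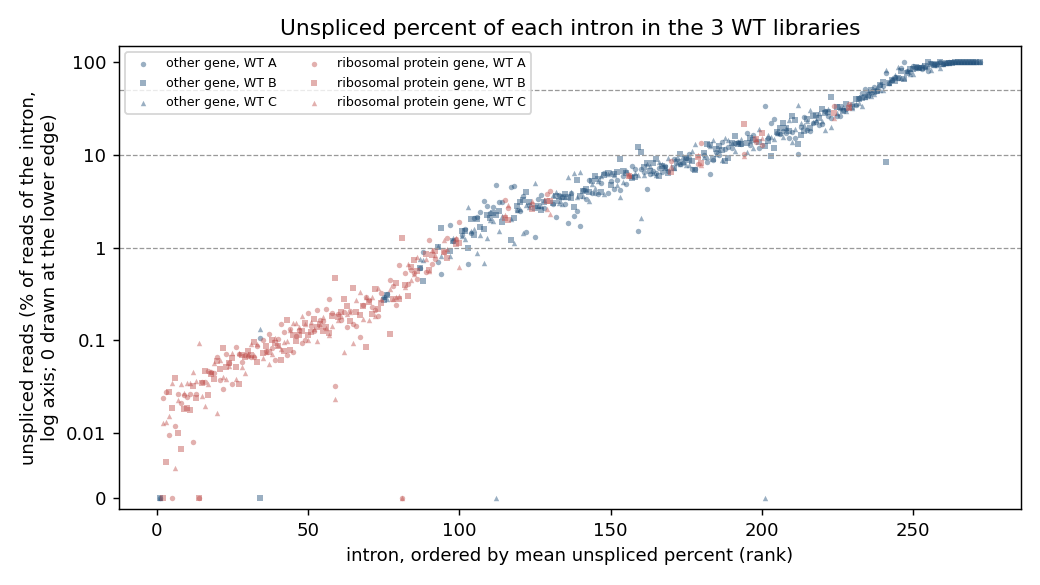
Unspliced percent of the 272 kept introns in each of the 3 WT libraries (y axis, % of the reads of the intron, log axis with 0 drawn at the lower edge), ordered by the mean over the libraries (x axis, rank). Colours separate ribosomal protein genes from other genes, marker shapes the libraries, and dashed lines the class bounds of 1%, 10% and 50%; the 95 introns under 1% are mostly ribosomal protein introns and the 35 over 50% hold none.

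The unspliced reads were concentrated on few introns. The 35 introns over 50% unspliced held 50.2% ± 0.703 of all unspliced reads and 1.05% ± 0.0956 of all reads. The 95 introns under 1% held 6.93% ± 0.453 of the unspliced reads and 85.7% ± 0.343 of all reads. The intron of APE2, an aminopeptidase gene, alone gave 11.3%, 11.1% and 11.4% of the unspliced reads of libraries A, B and C, against a read share of 0.208%. MTR2, which encodes a partner of the main mRNA export receptor, gave 6.95% ± 0.175 of them, and GIM4, a subunit of the prefoldin chaperone, 6.41% ± 0.833. CMC4, a protein of the mitochondrial intermembrane space, gave 5.86% ± 0.326. The first ribosomal protein intron in this order, the fifth of all, was that of RPS25A, with 4.64% ± 0.230. Together 14 introns held 50.4% ± 0.817 of the unspliced reads, and 2 of them were ribosomal protein introns, in RPS25A and RPS22B. These 14 held 6.68% ± 0.541 of all reads, with EFB1 (3.36%) and RPS25A (1.40%) holding the most. Their median was 2383 reads a library, against 1418 over all 272 kept introns.

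Ribosomal protein introns stood at the low end. The 104 kept introns of this class had a median of 0.142%, 0.138% and 0.140% unspliced in libraries A, B and C, a mean of 0.140% ± 0.00211, with a range from 0.0123% to 33.5%. The other 168 introns had a median of 9.95%, 10.3% and 10.6%, a mean of 10.3% ± 0.320, with a range from 0 to 100%. Of the ribosomal protein introns 87 were under 1%, 12 from 1% to 10%, 5 from 10% to 50% and none over 50%. Of the others 8 were under 1%, 74 from 1% to 10%, 51 from 10% to 50% and 35 over 50%. Genes of the large subunit (58 introns) and of the small subunit (45 introns) had medians of 0.136% ± 0.0135 and 0.140% ± 0.0104, which differ by less than their SD over libraries. The stalk gene contributed 1 intron, at 0.150% ± 0.0593.

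The lowest unspliced percents among introns with at least 100 reads a library all belonged to ribosomal protein genes. RPL14A (chrXI:432035-432432) had 3, 0 and 3 unspliced beside 12504, 16896 and 23376 spliced reads in libraries A, B and C, a mean of 0.0123% ± 0.0120. RPL39, RPL43A, RPL31A, RPS0B, RPS23B, RPS18B, RPS4A, RPS29A, RPS19B, RPL22A and RPL43B followed, with means from 0.0151% to 0.0288%. At this level the value rests on few reads: RPL31A had 0, 1 and 2 unspliced reads, and RPL43A, with a read share of 4.61% ± 0.674, had 6, 25 and 20, with 0.0338% unspliced in the drawn table against 0.0173% here. The SDs of these 12 introns, up to 0.0187 percentage points, are of the size of the differences between them, so their order is not resolved.

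Outside the ribosomal proteins, 8 introns were under 1% unspliced. POP8, a subunit of the nucleases RNase P and RNase MRP, had no unspliced read among 71, 75 and 94 reads, and 0 of 240 reads allows a share of up to 1.25%. In the authors' randomly drawn table the same intron had 8.74% unspliced, so its value differs between the deposited tables. ASC1, a protein of the small ribosomal subunit that is not named RPL or RPS, had 3 unspliced of 3718 reads, or 0.0791% ± 0.0698. The translation elongation factor genes TEF4 and EFB1 had 0.300% ± 0.0182 and 0.911% ± 0.185. SNR17B, which encodes U3, the small nucleolar RNA (snoRNA) needed for ribosomal RNA processing, had 0.286% ± 0.0127. YPR170W-B, YOP1 and DTD1 had 0.656% ± 0.0913, 0.688% ± 0.234 and 0.981% ± 0.568. EFB1 and DTD1 were over 1% in the drawn table, with 1.53% and 1.93%.

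The ribosomal protein introns that were unspliced to more than 10% were few. RPL2B, for a large subunit protein, had 35.4%, 31.9% and 33.2% unspliced in libraries A, B and C. RPL18B had 33.8%, 28.4% and 25.1%. Introns 1 and 2 of RPS22B had 15.1% ± 2.40 and 14.5% ± 0.537, and RPS27A had 13.8% ± 6.68, the highest in library B (10.2%, 21.6% and 9.79%). These 5 introns drew few reads for ribosomal protein introns, and the largest read share among them was 0.172%, in RPS22B intron 2.

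The highest unspliced percents came from introns of many functions. Among introns with at least 100 reads a library and at least 1 spliced read, PSP2, an RNA-binding protein gene, had 0, 1 and 0 spliced beside 180, 318 and 452 unspliced reads in libraries A, B and C, a mean of 99.9% ± 0.181 unspliced. GIM4 had 1, 8 and 6 spliced beside 2024, 2590 and 2369 unspliced reads, a mean of 99.8% ± 0.136. MTR2 had 99.8%, 99.3% and 99.8%. YPR202W, an open reading frame without a known function, had 99.1% ± 0.813. APE2 (chrXI:155272-155654) had 98.1%, 98.3% and 98.2% from 12645 reads in all, and its SD of 0.0627 was the smallest of the 12 introns of this group. MPT5, a PUF family RNA-binding protein, had 95.9% ± 0.764, and KIN28, the kinase of the transcription factor TFIIH, had 95.7%, 95.1% and 92.6%.

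The next introns in this order lay between 88% and 95%. MMS2, a partner of the ubiquitin-conjugating enzyme Ubc13, had 94.1% ± 1.65. NOG2, a GTPase of large subunit assembly whose intron hosts a snoRNA, had 98.3%, 96.7% and 83.3% in libraries A, B and C, so that library C stood lower, with 23 spliced reads against 1 and 4. RRT8 had 89.4% ± 1.25 and CMC4 88.4% ± 0.962. SAR1, the GTPase that starts the budding of vesicles from the endoplasmic reticulum, had 89.4%, 88.7% and 86.2%. SAR1 is less sure than its spread shows: in the authors' randomly drawn table its spliced reads were 25.6 times the number expected from the full counts, and the unspliced percent was 42.0%. RRT8 had 81.9% there.

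For 7 kept introns no spliced read was counted in any WT library. HAC1, whose product drives the unfolded protein response, had 495, 714 and 664 unspliced reads, and 0 of 1873 reads allows a spliced share of up to 0.160%. Its intron (chrVI:75840-76091) is known to be cut by the endonuclease Ire1 and joined by a transfer RNA ligase, not by the spliceosome, and it starts with CCGTGA and ends with CCG. COX5B, a subunit of cytochrome c oxidase made mainly at low oxygen, had 184, 194 and 242 reads, which allows up to 0.484%. YJR112W-A (679 reads), YNL050C (311 reads), YDR535C (115 reads), YOR318C (89 reads) and YJR079W (42 reads) are listed with no function used here, and the limits for them run from 0.442% to 7.14%. Of the 5 of these 7 introns that were placed on the reference, 1 started with GTATGT. HAC1 started with CCGTGA, COX5B and YJR079W with GCATGT, and YNL050C with GTATGC. YJR112W-A (chrX:637810-637858), which started with GTATGT, ended with AGG and is the shortest of the kept introns that were placed, at 49 bases. Together the 7 introns held 3.39% ± 0.150 of the unspliced reads.

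Reads were concentrated on few genes. Ribosomal protein genes took 82.3%, 82.5% and 83.6% of the reads of libraries A, B and C, a mean of 82.8% ± 0.732. The first 10 genes took 34.3%, and 21 introns of 20 genes together held the top 50% of the reads. Of the first 50 genes by read share 45 were ribosomal protein genes, and of the 29 genes with over 1% each 27 were. At the other end, 55 genes had under 0.01% each.

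RPL29, a large subunit protein gene, had the largest read share, with 8.02%, 8.60% and 8.81%. RPL43A followed with 3.94%, 4.60% and 5.29%, and EFB1 with 3.77%, 3.15% and 3.14%. The SDs of these shares, 0.406, 0.674 and 0.361 percentage points, leave RPL29 clear of the others. RPL7A (3.35% over its 2 introns), RPL16A, RPS0B, RPS4B, RPL32, RPS23A, RPS19B, RPS4A and RPS10A made up the rest of the first 12, down to 1.93% ± 0.0586. Several neighbours in that order, such as EFB1 and RPL7A or RPS4B and RPL32, differ by less than their SD. In EFB1 the spliced reads of the drawn table were 0.567 times the expected number, so its share and its percent rest on the full counts. SNR17B, ranked next, was the only other gene over 1% that does not encode a ribosomal protein, with 1.88% ± 0.378.

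Introns with more reads had a lower unspliced percent. Over all 272 introns Spearman's rho between mean reads and mean unspliced percent was −0.76. Within the ribosomal protein introns it was −0.66, and within the others −0.50. The per-library values ran from −0.75 to −0.46. These are descriptions across introns, which share libraries, primers and gene classes. Reads also enter both measures, since spliced reads raise the total and lower the percent. The median number of reads a library fell from 11004 in the class under 1% to 1349 from 1% to 10%, 267 from 10% to 50% and 207 over 50%. Some introns with many reads were still mostly unspliced, among them APE2, with a mean of 4215 reads a library, and MTR2, GIM4 and CMC4, with 2559, 2333 and 2434.

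**Figure D2:**
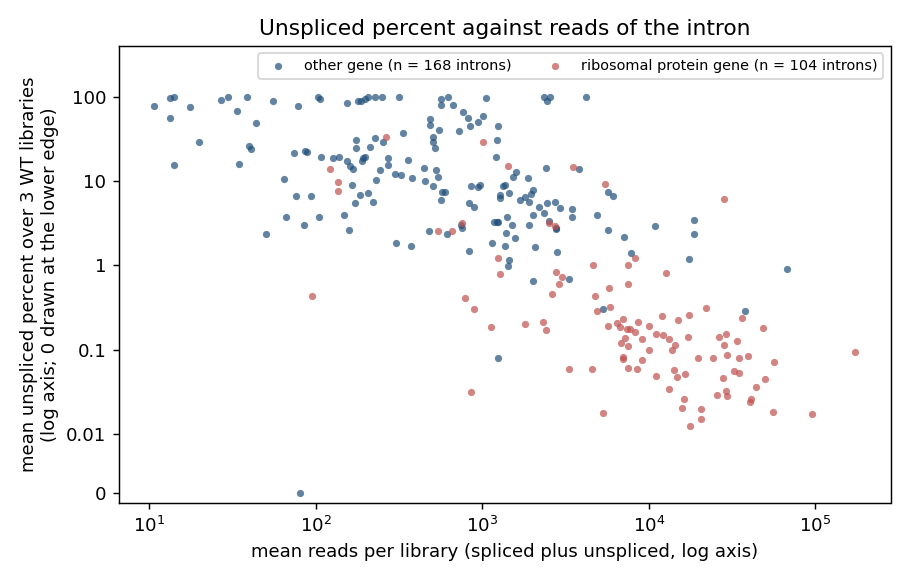
Mean unspliced percent over the 3 WT libraries (y axis, log axis with 0 drawn at the lower edge) against mean reads per library (x axis, log axis), 1 point per intron, for 104 ribosomal protein introns and 168 others. The point cloud falls from upper left to lower right (rho −0.76), and a band of introns near 100% reaches past 1000 reads.

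Splice site letters went with the unspliced percent outside the ribosomal proteins. The R64 annotation gave positions, through its coding exons, for 244 of the 272 kept introns, 90 of them in ribosomal protein genes and 154 in others, and 28 could not be placed. GTATGT was read at the first 6 bases and TACTAAC anywhere in the intron, both on the transcribed strand only, and the motifs cannot overlap at the intron start. Among the 279 introns placed in all, kept or not, 73.1% start with GTATGT and 82.4% hold TACTAAC. A match is a string of letters and not a mapped branch point.

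Among the 154 other introns, the 118 with TACTAAC had a median of 6.72%, 7.19% and 6.68% unspliced in libraries A, B and C. The 36 without it had 25.99%, 32.0% and 28.7%. The means of these medians were 6.86% ± 0.284 and 28.9% ± 3.02, and the libraries of the 2 classes did not overlap. At least 10% unspliced was reached by 40.7% of the introns with TACTAAC and 77.8% of those without. By the intron start, the 122 introns with GTATGT had 7.76% ± 0.776 and the 32 with another start had 35.2% ± 1.53. With both sequences (93 introns) the median was 5.85% ± 0.503, with GTATGT only (29 introns) 23.6% ± 1.44, with TACTAAC only (25 introns) 22.7% ± 3.13, and with neither (7 introns) 50.4% ± 2.75. HAC1, which is not cut by the spliceosome, is counted in the classes with another start, without TACTAAC and with neither. The medians without it were not computed. The classes also differ in reads, with a median of 604.5 reads a library with TACTAAC and 355 without. From 10 to under 100 mean reads the medians were 20.02% ± 1.70 with TACTAAC (17 introns) and 43.1% ± 7.82 without (8 introns). From 100 to under 1000 reads they were 13.3% ± 0.208 (48 introns) and 29.5% ± 3.42 (23 introns). From 1000 reads on they were 3.67% ± 0.124 (53 introns) and 7.10% ± 0.902 (5 introns). The direction was thus the same in each range of reads, with few introns in the smallest classes. The ranges of reads were set after the values were seen.

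**Figure D3:**
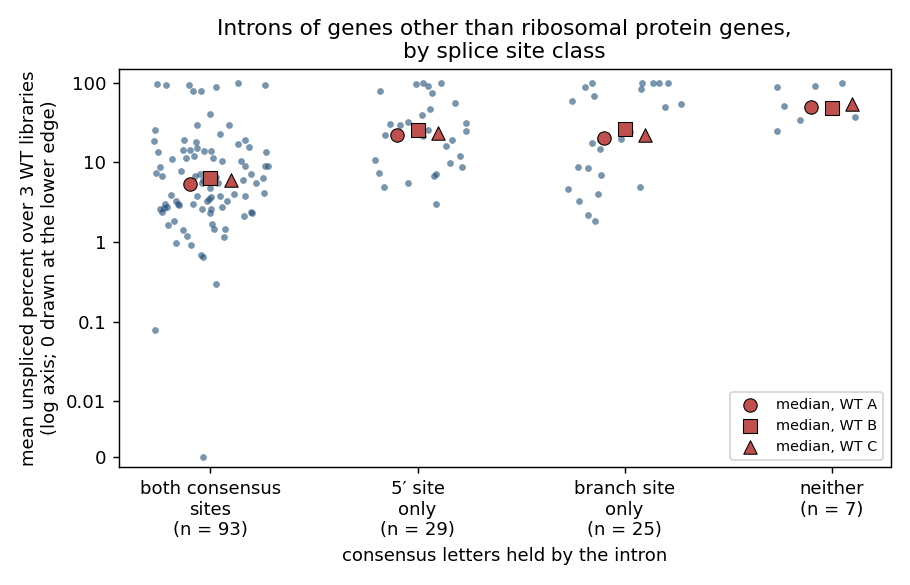
Mean unspliced percent over the 3 WT libraries (y axis, log axis with 0 drawn at the lower edge) of the 154 placed introns of genes other than ribosomal protein genes, by whether they hold the consensus start and branch site letters (x axis). Small points are introns and large markers the median in each library. The medians lie at 5.85% with both, 23.6% and 22.7% with 1 of them, and 50.4% with neither, a class that includes HAC1.

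Single starts covered few introns each. Among the other introns the 10 that start with GTAAGT had a median of 15.9% ± 1.89, the 6 with GTACGT 38.3% ± 2.66 and the 6 with GTATGC 49.6% ± 1.79. GTTTGT occurred once, in CMC4, at 88.4%, and GTGAGT once, in SRC1, at 54.7% ± 4.13. SRC1 encodes an inner nuclear membrane protein and is known for alternative splicing at overlapping starts, so that spliced reads here can hold more than a single product. GTTCGT occurred in 2 introns, with 83.1% in REC107 and 19.2% in CQD1. By the last bases, introns ending in CAG (65) and TAG (78) had 10.9% ± 0.882 and 9.06% ± 0.0913, and the 9 ending in AAG had 6.35% ± 0.300.

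In percentage points, the ribosomal protein introns varied much less with the same letters, from a far lower level. The 67 that start with GTATGT had a median of 0.119% ± 0.00995 and the 23 with another start 0.146% ± 0.0172. The 84 with TACTAAC had 0.113% ± 0.00400 and the 6 without it 0.282% ± 0.0640. RPL30, the only placed intron among these to start with GTCAGT, had 0.153%. The ribosomal protein introns were also longer, with a median of 407.5 bases against 96 for the others.

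Longer introns had lower unspliced percents over all introns, with little relation within the gene classes. Over the 244 placed introns rho between length and unspliced percent was −0.54, while within the ribosomal protein introns it was 0.15 and within the others −0.10. Among the others the medians were 12.9% ± 0.920 for 31 introns under 80 bases, 13.0% ± 1.30 for 52 of 80 to under 100 bases, 6.92% ± 0.355 for 47 of 100 to under 200 bases and 9.65% ± 0.678 for 24 of 200 bases or more. TACTAAC was held by 71.0%, 67.3%, 87.2% and 83.3% of these bins in turn, so the bins differ in branch site letters as well as in length. The distance from the last base of TACTAAC to the end of the intron, both bases counted, had a median of 30 bases in the others and a rho of 0.08 with their unspliced percent.

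Besides the ribosomal protein list, the introns grouped by function had list medians from under 1% to over 65%. A list median is the mean of the medians in the 3 libraries, which can differ from the median of the intron means. The lists of snoRNA hosts and of feedback control also hold ribosomal protein introns. The function lists do not hold every gene of their function. CMC4 is not in the mitochondrial list, for example, and YOS1 is not in the vesicle transport list. All lists were chosen with earlier results of these data known and are given as descriptions beside the median of 3.62% over all kept introns and of 10.3% over all introns outside the ribosomal proteins. The 11 introns of genes that host snoRNAs had a median of 0.911% ± 0.185, and 6 of them are ribosomal protein introns. They ran from RPL7A intron 1 at 0.0534% ± 0.0164 to NOG2 at 92.8% ± 8.22.

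The introns known for feedback control, in which a protein lowers the splicing or the level of its own RNA, spread over almost the whole range. RPL30 had 0.166%, 0.148% and 0.145% unspliced, RPS14B 0.534%, 0.731% and 0.516%, and RPS9A 2.53% ± 0.468. RPL22B had 13.5%, 8.13% and 7.87%. The RNA helicase gene DBP2 had 24.6%, 11.9% and 14.7%, with library A above the other libraries. YRA1, an mRNA export adaptor, had 78.1%, 85.2% and 74.6%, the highest of the 6 introns, whose median was 6.17% ± 1.65.

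The U3 snoRNA genes differed from each other. SNR17A had 6.49%, 7.61% and 8.03% unspliced and SNR17B 0.291%, 0.271% and 0.295%, so the libraries of the genes did not overlap. SNR17A took a smaller read share than SNR17B, with 17010 against 113533 reads in all. Both genes make nearly the same RNA, so reads could be assigned to either, and in the drawn table SNR17A had 4.98% unspliced.

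Meiotic genes, whose splicing and transcription are known to be held low in growing cells, also serve here as markers of meiotic cells. Of 14 meiotic introns 8 were under the minimum, 1 of them with no read, and the 6 kept ones held 0.0131% of the reads. Their median was 65.5% ± 7.01. REC107, an early recombination gene whose intron needs the meiosis-specific splicing factor Mer1, had 90.5%, 85.0% and 73.8% unspliced from 462 reads. The 3 other Mer1-dependent introns were under the minimum. MND1, a recombination factor, had 95.6% ± 7.70 and PCH2, a meiotic checkpoint ATPase, 55.7% ± 5.77, from 40 reads each. HOP2 intron 2, of the partner of MND1, was the lowest with 1.85%, 3.51% and 5.75% from 198 reads. Reads were thus few throughout. HMRA1, which encodes the mating-type regulator a1, had 17031 reads and 2.55%, 2.82% and 2.53% unspliced. Its sequence is also that of the a1 gene expressed at the mating-type locus of a cells, so the copies cannot be told apart by reads.

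Genes of the cytoskeleton and of tubulin folding had a median of 4.79% ± 1.15 over 13 introns. COF1 (cofilin, an actin-severing protein) had 2.16% ± 0.201. ACT1 (actin) had 2.71%, 2.37% and 1.94%. The α-tubulin genes TUB1 and TUB3 had 2.77% ± 1.16 and 3.95% ± 0.325. The remaining members reached 19.3% in DYN2 intron 2 and 99.8% in GIM4, while GIM5, another prefoldin subunit, had 3.74%. The 2 prefoldin introns therefore lay far apart.

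Among 9 introns of the ubiquitin and proteasome genes the median was 4.96% ± 0.931. UBC4, a ubiquitin-conjugating enzyme, was lowest with 1.17%, 1.17% and 1.27%, and its close relative UBC5 had 6.25%, 12.7% and 12.3%, from 192 reads. UBC8 had 4.96% ± 0.931, and UBC12 and MMS2 were the members over 50%, with 68.1% and 94.1%. The 18 introns of the vesicle transport list had a median of 7.55% ± 0.852, with SEC27, a coat protein, at 7.18% ± 1.64. They ran from 1.41% ± 0.0974 in VMA10, a subunit of the vacuolar proton pump, to SAR1. 

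Introns of RNA processing and export genes had a median of 17.8% ± 0.325 over 15 introns, of which 12 were at 10% or more. They included YRA1, MTR2 and PSP2, the introns of SUS1, with 33.5% ± 1.86 and 17.8% ± 1.41, and YSF3, a splicing factor gene, with 40.6% ± 6.80. The remaining members ran from SMD2 with 22.6% (6.38% in the drawn table) down to LSM2 with 2.97% and POP8 with 0. The 9 introns of the mitochondrial list had a median of 11.7% ± 2.71, with QCR9 at 11.9% ± 3.43. They ran from COX4, a cytochrome c oxidase subunit, with 1.68% ± 0.371, to COX5B with no spliced read. Introns of transcription and chromatin genes had 25.6% ± 2.80 over 10 introns, including HPC2, a histone gene regulator, at 22.2% ± 3.27, and GCR1, a transcription factor of glycolytic genes, at 59.5%, 59.4% and 59.1%. Introns of kinases and phosphatases had 12.6% ± 1.28 over 8, with MRK1 lowest at 2.57% ± 1.70. PHO85, a cyclin-dependent kinase, had 9.94%, 12.3% and 11.4%. PTC7, a phosphatase for which both the spliced and the unspliced RNA are known to be translated, had 31.1%, 35.2% and 29.4%.

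**Figure D4:**
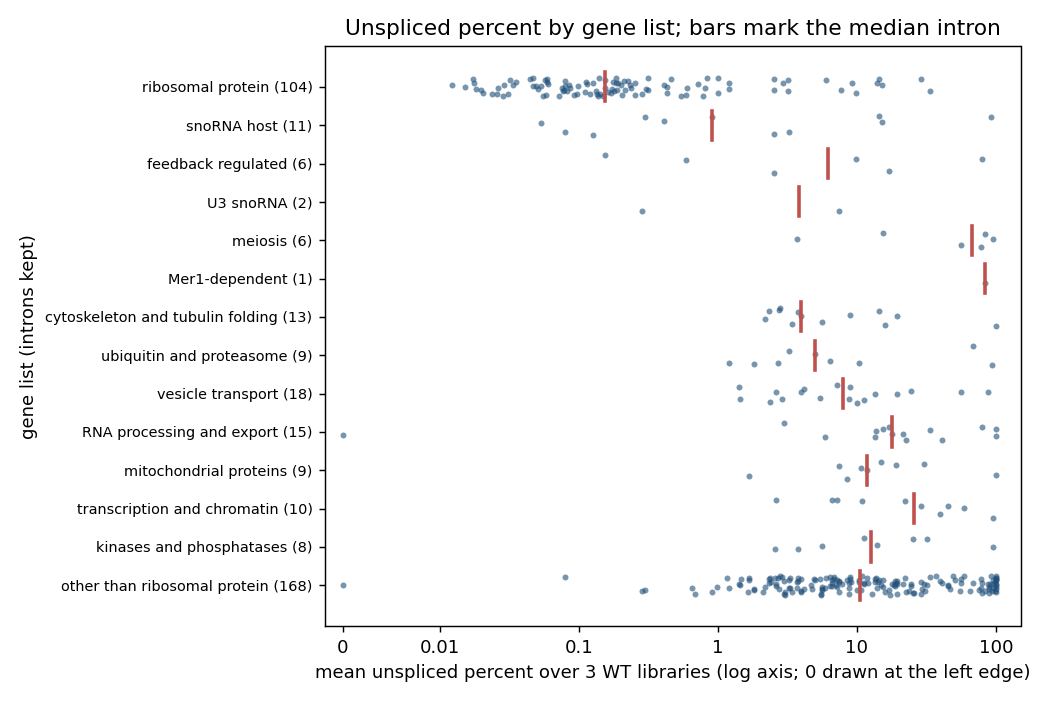
Mean unspliced percent over the 3 WT libraries (x axis, log axis with 0 drawn at the left edge) of the kept introns of each gene list (y axis, number of introns in brackets), 1 point per intron. Bars mark the median of these intron means, not the mean of library medians given in the text. Ribosomal protein introns cluster between 0.01% and 1%, and the other lists spread over more than a factor of 10 each wherever they hold more than 1 intron.

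Many ribosomal proteins are encoded by duplicate genes, named A and B, so introns of close relatives can be compared within the same libraries. The comparison asked whether the ratio of unspliced to spliced reads differed between the copies. Of 47 pairs of introns 32 differed at an adjusted p under 0.05 in edgeR's quasi-likelihood test, which is 68.1% of the pairs tested. In 16 pairs the A copy was higher (34% of those tested) and in 16 pairs the B copy was higher (34%). The libraries of the copies did not overlap in 29 of the 47 pairs tested, all of them called. The call uses the same libraries, so this is not separate support. In 22 of the 47 pairs, all of them called, the ratio differed by more than 4-fold. The median absolute log2 difference over all 47 pairs was 1.87. The copies are near-identical in their exons, and a read without distinguishing bases could be assigned to either, so the assignment between copies is uncertain. The labels do not say that the replicates came from separate cultures, so these p-values measure the spread between these 3 libraries, which may be technical.

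In pairs where the B copy was higher, the difference was largest for RPL22. RPL22A had 0.00806%, 0.0324% and 0.0449% unspliced in libraries A, B and C and RPL22B 13.5%, 8.13% and 7.87%, a log2 difference of the ratio (A minus B) of −8.45 (SE 0.511, adjusted p = 2.70e-18). RPL22A held 99.5% of the reads of the pair. RPS29A had 0.0245%, 0.0185% and 0.0344% and RPS29B 0.657%, 0.835% and 0.935%, a log2 difference of −4.91 (SE 0.356, adjusted p = 7.44e-16), with 56.3% of the reads in RPS29A. In both pairs every library of the B copy lay above every library of the A copy. For intron 2 of the RPL7 pair, RPL7A had 0.129%, 0.114% and 0.140% and RPL7B 3.27%, 2.10% and 2.22%, a log2 difference of −4.31 (SE 0.350, adjusted p = 2.61e-14), with 98.1% of the reads in RPL7A.

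In pairs where the A copy was higher, RPS27 and RPL34 stood first. RPS27A had 10.2%, 21.6% and 9.79% and RPS27B 0.0994%, 0.154% and 0.149%, a log2 difference of 6.82 (SE 0.426, adjusted p = 6.77e-18), and RPS27A held 1.33% of the reads of the pair. RPL34A had 8.03%, 9.55% and 10.0% and RPL34B 0.0924%, 0.127% and 0.182%, a log2 difference of 6.20 (SE 0.269, adjusted p = 3.77e-23), and RPL34A held 29.4% of the reads. In these pairs too the libraries did not overlap. In all 5 pairs named so far the copy with fewer reads had the higher unspliced percent, and the same was so in 23 of the 32 pairs called. Most of the pairs that were not called went the same way, so this is not particular to the called pairs. These reads also enter the percent, and the 2 are not independent.

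In other pairs the copy with more reads had the higher unspliced percent. RPS25A held 85.6% of the reads of its pair and had 6.03% ± 0.185 unspliced, against 0.432% ± 0.0860 in RPS25B, a log2 difference of 3.90 (SE 0.264, adjusted p = 8.64e-17). This pair was chosen after its values were seen. In the RPS0 and RPL2 pairs the copy with fewer reads was higher, with 11.7% and 90.4% of the reads in the A copy. RPS0A, one of the introns with the largest spread, had 0.0324%, 0.469% and 0.0230%, and RPS0B 0.0119%, 0.0388% and 0.00421%. The log2 difference of 3.21 (SE 0.629, adjusted p = 2.18e-05) rested on library B: without it the difference was 1.96 (SE 0.729) and the adjusted p 0.0696. In the RPL2 pair the call depends on the table: RPL2A and RPL2B had 3.19% and 33.5% in the full counts but 15.7% and 20.6% in the authors' randomly drawn counts. For the 15 pairs that did not pass the test, a p over the threshold does not show that their copies are spliced alike.

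**Figure D5:**
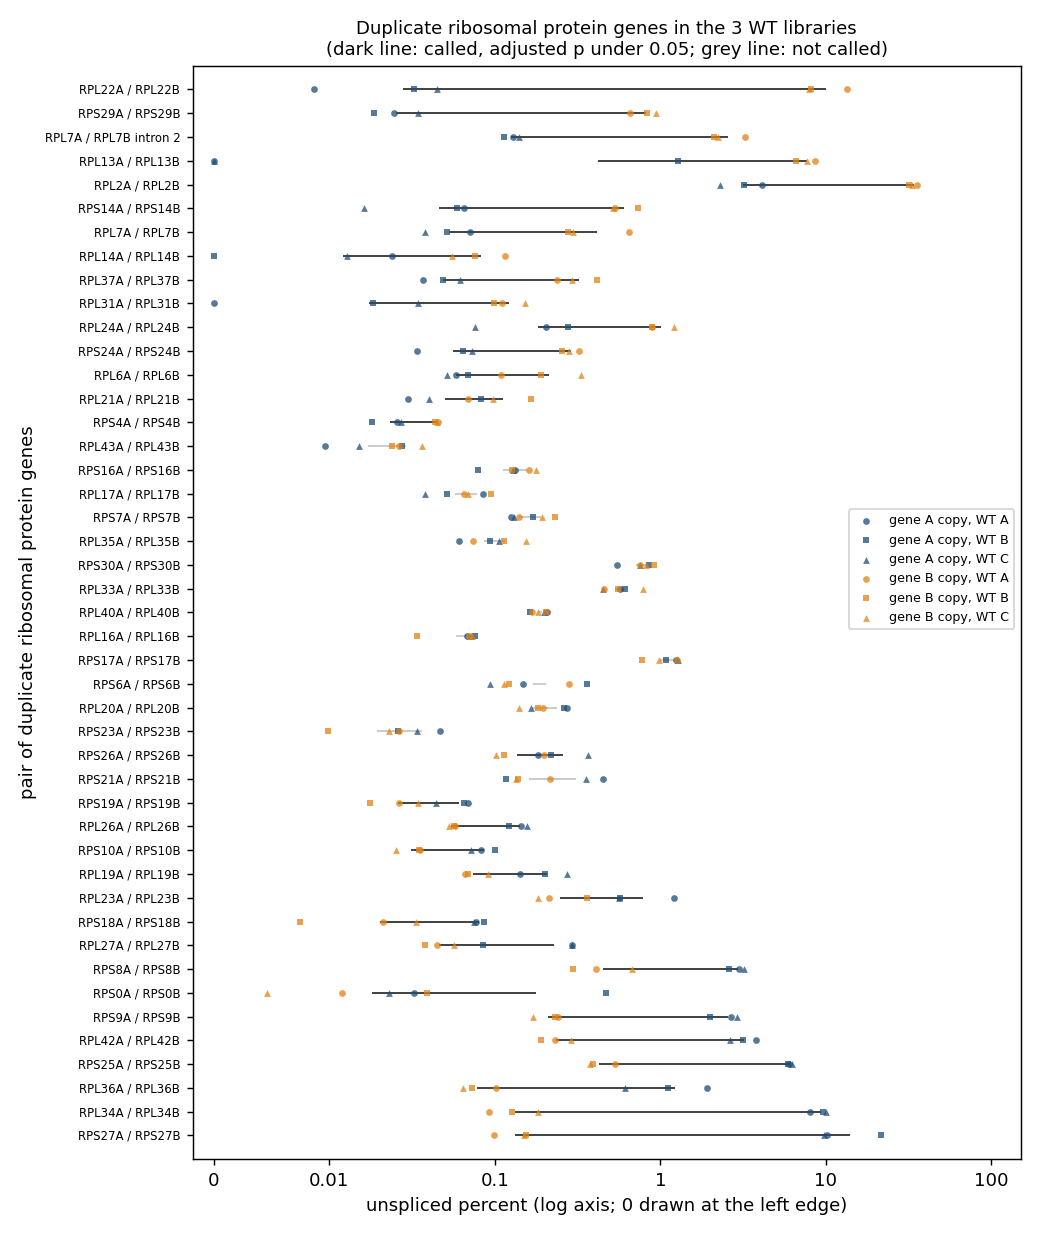
Unspliced percent of the A and B copies of 45 of the 47 pairs of ribosomal protein introns in each of the 3 WT libraries (x axis, log axis with 0 drawn at the left edge), ordered by the log2 difference of the ratio (y axis). Lines join the means, dark where the pair was called (31) and grey where it was not; the called pairs lie mostly at both ends, 15 with the B copy higher at the top and 16 with the A copy higher at the bottom.

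Introns 1 and 2 of a single gene could be compared in 6 genes. The ratio differed at an adjusted p under 0.05 in 5 of them, which is 83.3% of those tested. Intron 1 was higher in 3 (50% of those tested) and intron 2 in 2 (33.3%). In SUS1, a subunit of the SAGA complex and of the mRNA export complex at the nuclear pore, intron 1 had 35.6%, 33.0% and 32.0% unspliced and intron 2 16.6%, 19.4% and 17.4%. The log2 difference was 1.21 (SE 0.186, adjusted p = 3.26e-07), the libraries did not overlap, and intron 1 is the one whose start and branch site depart from the consensus in the sequences above. VMA9, a subunit of the vacuolar proton pump, had 4.14% ± 1.07 in intron 1 and 1.45% ± 0.193 in intron 2, a log2 difference of 1.53 (SE 0.236, adjusted p = 3.48e-07). YOS1, a protein of transport from the endoplasmic reticulum, had 4.74% ± 1.04 and 2.41% ± 0.628, a log2 difference of 1.03 (SE 0.238, adjusted p = 0.000192), but without library B this fell to 0.71 and the adjusted p was 0.0567. 

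The genes with the higher value in intron 2 were the copies of RPL7. RPL7A had 0.0534% ± 0.0164 and 0.127% ± 0.0128 in introns 1 and 2, a log2 difference of −1.30 (SE 0.298, adjusted p = 0.000191). RPL7B had 0.407% ± 0.209 and 2.53% ± 0.642, a log2 difference of −2.65 (SE 0.442, adjusted p = 1.52e-06). In both copies intron 1, the lower of the 2, holds no TACTAAC and intron 2 does, the reverse of the order seen for the classes above. RPS22B did not pass the test, with 15.1% ± 2.40 and 14.5% ± 0.537.

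The libraries gave close values for most introns. Over the 264 introns where it could be computed, the SD between libraries was a median of 1.15 times the SD expected from counting alone. It was over 2 times that in 43 introns and over 3 times in 13. Spearman's rho of the unspliced percent between pairs of libraries was 0.962 to 0.979. ARF2, a GTPase of vesicle coats, had the largest ratio, 17.1. It had 77.4%, 8.49% and 82.0% unspliced in libraries A, B and C, where library B held 1833 spliced reads against 36 and 54. Its mean of 55.9% therefore describes none of the libraries, and the authors' drawn counts gave 71.1%. DYN2 intron 2, in a dynein light chain gene, had 10.3%, 13.1% and 34.4%, with library C high, and 4.89% in the drawn counts. GLC7, a protein phosphatase, had 17.3%, 13.5% and 10.8%. RPS0A and EFB1 followed with ratios of 5.23 and 4.99, and TUB1 with 3.77, from 3.61%, 3.26% and 1.44%.

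The minimum of 10 reads fell in a range where the percent is imprecise. Just above it lay REC114, with 10.7 reads a library and 100%, 66.7% and 68.4% unspliced, MND1 and PCH2 with 13.3 reads, and DMC1, a meiotic recombinase, with 14 reads and 33.3%, 12.5% and 0 unspliced. Just below it lay SPT14 with 9 reads a library, of which 1, 4 and 9 in libraries A, B and C were unspliced, YHL050C with 8.67 reads, BUD25 with 8 reads and EFM5 intron 1 with 7.33 reads. BUD25 and YHL050C had no spliced read among 24 and 26 reads.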

How the data were processed

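Values were counts as deposited by the authors: per intron and library a count of spliced and a count of unspliced reads, not normalized. Per the submitters' processing notes, the tools were fastp 0.19.5, HISAT2 2.2.1 and SAMtools, and the build was R64. The assignment of reads to spliced or unspliced and between near-identical genes, and the handling of duplicate reads, are not given in the sources used here. Intervals and limits cover counting error only. A second deposited table of counts, drawn at random by the authors at several depths, served as an alternative at its highest depth (800000 reads). Percents used the mean of 5 draws, and the pair tests a single draw. For 28 kept introns a count in it differed by over 1.5 times from that expected from the full table, and the drawn percent is given for those of them that are named. Its depth and draw headers were read as interchanged.

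Introns were taken with a mean of at least 10 reads over the 3 WT libraries. The limit for a count of 0 was 3 counts of the total. Pairs of libraries differed by more than counting error (chi-square per degree of freedom 17.4 to 31.5), so all 3 were counted. Positions and sequences came from the RefSeq R64 reference, and genes with 2 introns were taken as numbered in the order of transcription.

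Medians, classes and shares were computed in pandas 2.3.3 and carry no test. Pairs of introns were compared in edgeR 4.0.16 (R 4.3.3) by the quasi-likelihood test of the read type by gene interaction, with terms for each library and gene and for read type, so that depth cancels. All 53 pairs of both families were fitted together, a choice made after the files were seen, and p-values were adjusted over them by Benjamini-Hochberg, with a threshold of 0.05. The procedure was also run on simulated counts with equal total reads in both members of a pair and a fixed spread, unlike the pairs here. That run therefore does not show how well the p-values hold for these pairs. limma 3.58.1 (pseudocount 0.5) and DESeq2 1.42.0 were alternatives, and matplotlib 3.10.9 drew the plots. Introns named are the 12 highest and 12 lowest with a mean of at least 100 reads, the 12 genes of largest read share, the highest, lowest and median member of each list, the 6 pairs of largest difference (1 of them, and 1 further pair, are not reported here), the 6 introns of largest spread, the 4 on each side of the minimum, those with no spliced read, and a set of well-studied introns. All other introns named were picked with their values known. The members, lists, tests and rule were chosen with earlier results of these data known. The sequences shown, the bins of length and reads, the origin of the unspliced reads and the further lists of starts and ends were chosen after the values were seen.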

Additional observations from a re-analysis of the deposited data

How the results depend on the processing

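The median unspliced percent over introns of 3.62% was 3.02% with a minimum of 100 reads, 3.93% with no minimum, 3.83% with the drawn counts, 3.79% from reads summed over libraries and 3.37% without the introns that had no spliced read. For the introns outside the ribosomal proteins (10.3%) the same settings gave 8.34%, 11.5%, 9.96%, 10.9% and 9.24%. The ribosomal protein median of 0.140% became 0.166% with the drawn counts and 0.153% from summed reads, and the ribosomal protein share of reads became 84.4% with the drawn counts. Outside the ribosomal proteins, introns with GTATGT had 6.82% with a minimum of 100 reads. Those with another start had 24.5% with that minimum, 50.8% with none and 37.5% with the drawn counts. Introns with TACTAAC had 6.45% with a minimum of 100 reads, 7.73% with none and 7.57% when the letters had to lie in the last 100 bases, where those without had 24.5%. The gap between the classes kept its direction under each of these. The counts per class of unspliced percent and the 21 introns holding the top 50% of reads stayed within 1.5 times under every setting tried. The drawn counts moved 24 of the 78 named introns by more than their SD. Leaving out 1 library moved 8 of the 78 by over 1.5 times: without A, DMC1 became 6.25%, MRK1 1.62%, RPL39 0.00898%, RPL14A 0.00642% and RPL31A 0.0264%; without B, RPS0A became 0.0277% and RPS0B 0.00804%; without C, DYN2 intron 2 became 11.7% and RPL31A 0.00924%. ARF2 became 79.7% without B.

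The count of 32 called duplicate pairs was 30 in limma, 27 in DESeq2, 32 with TMM offsets, which cancel by construction, 31 with a minimum of 100 reads and 27 to 30 without 1 library. The drawn counts, a single draw with fewer reads, called 19 pairs, 16 of them shared with the 32. Fewer reads are not the only difference, since RPL13A had 0.0817 times its expected spliced reads there. RPL13A and RPL13B, a called pair, had 0.427% and 7.63% unspliced in the full counts. The mean of the draws gave 12.5% and 8.91%, so their order reversed. The full value of RPL13A rests on 1 unspliced read. Libraries of the same letter enter every pair by construction, and the replicate block, a term for each library and read type, called 32 duplicate pairs and 5 pairs of introns of a gene. The 5 calls among introns of a gene became 4 without library B, where YOS1 was lost, and stayed 5 in limma and DESeq2. Depth limits the lowest values most, since 57 of the 104 ribosomal protein introns had under 50 unspliced reads over the 3 libraries.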
